A study of Mus musculus with 30 samples.

Results

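The libraries compared here hold stromal RNA from mouse bone in which tumours of the circulating tumour cell (CTC) line Brx68 (7 libraries) or Brx50 (4 libraries) had formed. They were chosen by their labels alone and make up 11 of the 30 libraries of the series. No gene passed an adjusted p of 0.05 between the lines. Rod photoreceptor genes stood high in 2 Brx50 libraries and squamous keratin genes in 3 Brx68 libraries, and the tissue these transcripts came from was not tested.

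Brx50 and Brx68 are cultures of human breast cancer cells that were grown from patients' blood. Per the labels' protocols, 100000 cells marked with GFP and luciferase were given in 100 µl into the left cardiac ventricle of female NSG mice aged 6 to 8 weeks. NSG mice lack T, B and natural killer cells and so accept human cells. The mice carried slow-release estrogen pills under the skin. Tissue with lesions was broken up into single cells, and 50000 GFP- cells per sample were sorted for RNA. The labels call these cells stromal. Both groups share this mouse strain, sex, route and hormone, and differ by the CTC line. Further groups stand beside them: 3 bone libraries from tumour-free mice (control), 2 bone libraries with the line Brx07, titled leg (replicate 1) and skull (replicate 2), and the lung libraries of Brx50 (3) and Brx68 (1). Whether control mice carried estrogen pills, which bone each Brx50 or Brx68 library came from, and whether libraries of a line came from separate mice is not stated in the labels. Hence p-values measure only the spread between these libraries, which may be in part technical. The sort kept every cell without GFP, so the RNA can come from any mouse cell of the dissociated tissue.

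Bone holds several organs in close contact. Osteoblasts lay down matrix, osteoclasts resorb it, and the marrow between them makes neutrophils, red cells and platelets. Fibroblasts, pericytes, endothelium and adipocytes form the stroma that tumour cells meet. Other tissues lie close to bone: muscle and skin along the body, and the retina, olfactory epithelium, pituitary gland and oral mucosa at the skull. Rods detect light through a G protein cascade, and olfactory neurons detect odours through a cyclic nucleotide pathway. Squamous epithelia are built from keratin pairs that differ between the basal layer, epidermis and mucosa.

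Promoters of 4 genes whose levels are described below are shown, from RefSeq on GRCm38.p6, as the 250 bases before the start site on the coding strand. Capitals mark the match to a motif that was searched on both strands: TAATCC, the core recognised by the photoreceptor factor CRX, in Sag; CCCNNGGG, the core of the EBF sites of olfactory neuron genes, in Cnga2; and TGANTCA, an AP-1 site, in Krt13 and Lor. Krt13 also holds the CRX core, outside its AP-1 site, and no marked match overlaps another motif.
Sag, chr1:87803430-87803679, plus strand: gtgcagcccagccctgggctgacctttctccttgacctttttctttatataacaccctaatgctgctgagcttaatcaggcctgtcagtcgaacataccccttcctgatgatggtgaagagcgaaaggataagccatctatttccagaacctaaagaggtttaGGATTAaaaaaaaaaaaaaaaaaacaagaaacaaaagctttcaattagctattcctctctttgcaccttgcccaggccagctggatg
Cnga2, chrX:71991599-71991848, plus strand: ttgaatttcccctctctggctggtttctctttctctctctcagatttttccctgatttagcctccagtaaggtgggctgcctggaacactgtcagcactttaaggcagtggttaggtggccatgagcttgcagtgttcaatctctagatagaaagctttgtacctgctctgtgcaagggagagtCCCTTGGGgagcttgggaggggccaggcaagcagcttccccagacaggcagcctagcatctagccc
Krt13, chr11:100121567-100121816, minus strand: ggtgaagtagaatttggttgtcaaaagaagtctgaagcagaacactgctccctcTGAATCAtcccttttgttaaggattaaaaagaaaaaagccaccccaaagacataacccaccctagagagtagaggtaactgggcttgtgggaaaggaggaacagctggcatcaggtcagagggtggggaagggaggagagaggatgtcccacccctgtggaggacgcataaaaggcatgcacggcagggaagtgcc
Lor, chr3:92083143-92083392, minus strand: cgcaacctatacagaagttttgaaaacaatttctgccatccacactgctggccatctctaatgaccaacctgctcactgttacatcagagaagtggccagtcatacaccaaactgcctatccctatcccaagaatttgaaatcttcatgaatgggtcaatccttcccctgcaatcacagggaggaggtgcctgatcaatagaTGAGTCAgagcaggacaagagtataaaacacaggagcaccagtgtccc
The CRX core was present in the promoters of 3 of the 7 photoreceptor genes that had an entry (Sag, Cnga1 and Crx, 42.9%), and in 6.38% of 27025 promoters of the same length. The EBF core was present in 2 of 8 olfactory genes (Gng13 and Cnga2, 25.0%) and in 11.7% of all promoters. The AP-1 site was present in 4 of 8 squamous genes (Krt13, Lor, Ivl and Sprr1a, 50.0%) and in 6.87% of all promoters. A match is a run of letters and was not tested as a site.

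Libraries of a line differed from each other about as much as libraries of different lines. Total counts ran from 7309251 to 10313036 in Brx50, from 7058861 to 15646947 in Brx68 and from 10625392 to 12989953 in controls. A count of 0 in an exposed library allows at most 3 counts, or 0.192 to 0.425 CPM (a gene's count per 1000000 counts of its library) by library, a limit from counting error only. Genes detected numbered 21778 to 23737 in Brx50. In Brx68 they numbered 14769 in replicate 1, 16256 in replicate 6 and 21233 to 24018 in the others. Spearman's rho over the 16628 genes tested ran from 0.762 to 0.945 within Brx50, from 0.758 to 0.936 within Brx68 and from 0.738 to 0.944 between the lines, against 0.986 to 0.991 among controls. Genes are not independent replicates, and these values only describe the libraries. The nearest library was of the same line for 8 of the 11, while Brx68 replicate 4 was nearest to Brx50 replicate 2 (0.944) and Brx50 replicate 1 and Brx68 replicate 3 were nearest to each other (0.938). The common biological coefficient of variation was 0.625 in Brx50, 0.76 in Brx68 and 0.142 in controls.

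**Figure D1:**
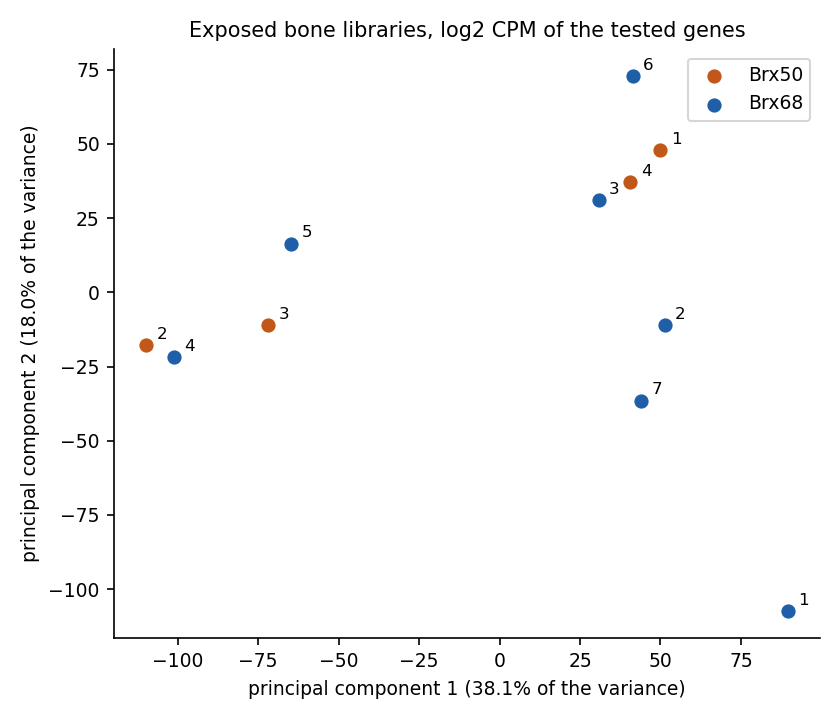
The 2 leading principal components of log2 CPM over the genes tested, 1 point per exposed bone library, numbered by replicate and coloured by line. Component 1 (38.1% of the variance) set Brx50 replicates 2 and 3 and Brx68 replicates 4 and 5 apart from the other 7 libraries, and Brx68 replicate 1 stood alone on component 2 (18.0%).

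The comparison between the lines asked whether stromal genes in bone differ with the CTC line. Of 16628 genes tested with edgeR's quasi-likelihood test, 0 (0%) passed an adjusted p of 0.05, and the lowest adjusted p was 0.983. At an unadjusted p under 0.05 there were 447 genes lower in Brx68 (2.69% of those tested) and 210 higher (1.26%). All 7 Brx68 libraries lay below all 4 Brx50 libraries for 107 genes (0.643%) and above them for 8 genes (0.0481%). DESeq2 called 26 of 16614 genes lower (0.156%) and 5 higher (0.0301%). By default it replaces outlying counts in groups of 7 or more libraries, which here is Brx68 alone. In 13 of its 31 calls the groups did not overlap. In simulated counts of this design, the edgeR test recovered 0% of genes changed 2-fold, 16.4% of those changed 4-fold and 69.7% of those changed 16-fold. Those counts were drawn for each gene independently, without variation that genes share, so these rates need not hold here. Since no gene passed, values below are levels and fitted differences (log2 of Brx68 over Brx50, with the standard error), not changes. Every gene tested had an edgeR adjusted p of 0.983 or more with all 11 libraries. Medians of gene lists describe these 11 libraries: 31 of 41 changed sign in 1 or more of 22 alternatives, which include leaving out each library and the 5 libraries whose title code ends in 2. Lists were chosen with earlier results of these data known, so counts of their members at an unadjusted p are no separate support. Fewer cells of a type and less RNA per cell cannot be told apart in these bulk samples.

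Genes of rod photoreceptors stood higher in Brx50. Gnat1, the rod transducin alpha subunit of the light cascade (chr9:107674474-107679712), stood at 10.8, 77.8, 213 and 7.88 CPM in Brx50 replicates 1 to 4. In Brx68 it ran from 0 to 5.35 CPM with a median of 2.99, and in controls it stood at 1.39, 0.847 and 1.11 CPM. All Brx68 libraries lay below all Brx50 libraries, as for 0.643% of all genes tested. Brx50 replicates 2 and 3 stood far above the other 2. The fitted difference was -4.91 ± 1.11 (adjusted p = 0.983 by edgeR), and DESeq2 gave an adjusted p of 0.00555.

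Sag, the arrestin that ends the light response of rods and whose promoter is printed above (chr1:87803680-87845158), stood at 1.78, 61.4, 155 and 1.94 CPM in Brx50. It reached at most 2.42 CPM in Brx68, so replicates 1 and 4 of Brx50 lay within the Brx68 range (-5.88 ± 1.24). Abca4, the transporter that clears retinal from outer segments (chr3:122044443-122180123), stood at 17.8, 36.6, 116 and 11.2 CPM in Brx50 and from 0.651 to 7.58 CPM in Brx68, without overlap (-3.50 ± 0.65). Gnat1 and Abca4 were picked by p in the same libraries, so their lack of overlap is no separate support. Of the 11 listed photoreceptor genes, 6 passed the filter on low counts, among them Gnat1, Pde6b, Sag, Rcvrn and Rom1. All 6 were fitted lower in Brx68 (median -4.85), each at an unadjusted p under 0.05, against 2.69% of all genes tested. Sag passed the filter through Brx50, where it was high, so the count of 6 is not independent of those levels. The median over all genes tested was 0.01. The other 5 (Pde6a, Prph2, Cnga1, Nrl and Crx) were high in too few libraries to enter the test. Nrl, the transcription factor that sets rod fate, was at 14.8 and 40.2 CPM in Brx50 replicates 2 and 3 and at 0.114 CPM or less in each of the other 9. The 11 genes summed to 489 and 1418 CPM in those 2 libraries, to 39.7 and 24.3 in Brx50 replicates 1 and 4, to 6.09 to 16.3 in Brx68 and to 9.53 to 11.2 in controls. Without the 3 libraries with olfactory transcripts (Brx50 replicates 2 and 3, Brx68 replicate 3), the median was -1.10.

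**Figure D2:**
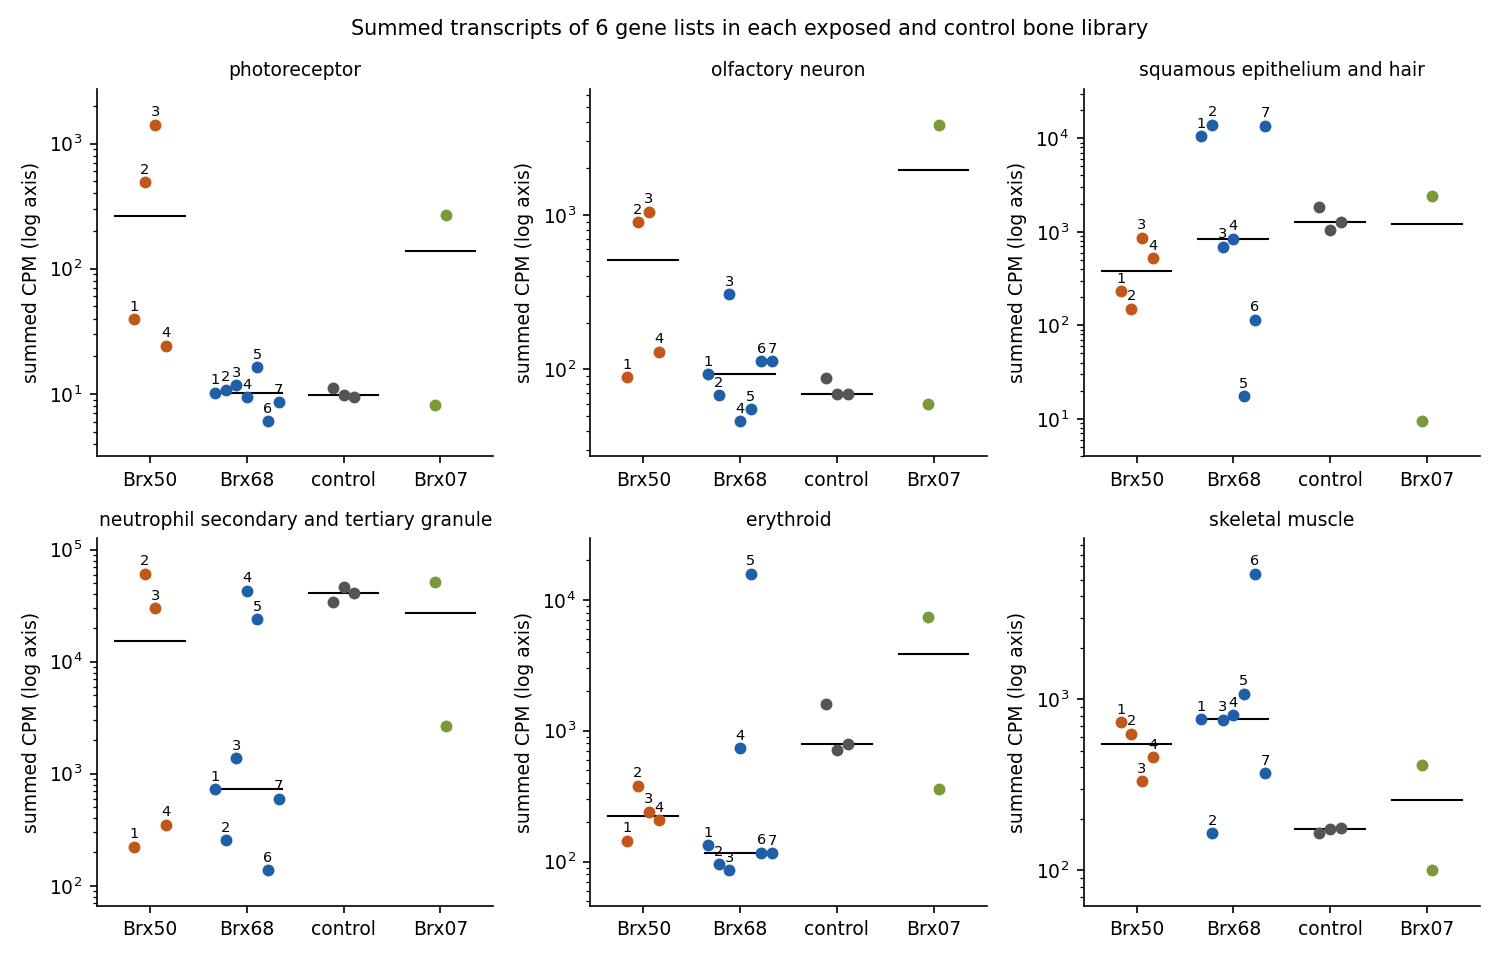
Summed CPM (log axis) of 6 gene lists in each bone library, with points numbered by replicate in the 2 lines compared and a line at each group's median. Photoreceptor and olfactory transcripts were high in Brx50 2 and 3, and squamous transcripts in Brx68 1, 2 and 7. Neutrophil transcripts were high in Brx50 2 and 3 and Brx68 4 and 5, and skeletal muscle transcripts in Brx68 6. Of the 2 lines compared, erythroid transcripts were highest in Brx68 5.

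Olfactory neuron genes were high in the same 2 Brx50 libraries and, at a lower level, in 1 Brx68 library. Omp, the marker of mature olfactory neurons, stood at 1.64, 216, 271 and 2.17 CPM in Brx50. It stood at 41.3 CPM in Brx68 replicate 3 and from 0.583 to 2.12 CPM in the other 6 Brx68 libraries, against 0.616, 1.13 and 1.30 in controls. The groups overlapped (-3.92 ± 1.46). Gnal, the G protein subunit of odorant signalling, showed the same 3 libraries at 217, 160 and 46.6 CPM, and at most 13.3 CPM elsewhere among the 11. Stoml3, a stomatin of olfactory cilia, stood at 122, 89.8 and 28.1 CPM in them and at 0.457 CPM or less in the other 8. Of 10 listed genes, 7 were tested and all 7 were fitted lower in Brx68, with a median of -2.70. Of these 7, 6 had an unadjusted p under 0.05, against 2.69% of all genes tested. Members high in the same libraries are not independent replicates, so this count is no separate support. Cnga2, the channel subunit whose promoter is printed above, was among the 3 not tested. Its levels were 60.3 and 59.4 CPM in Brx50 replicates 2 and 3, 11.5 in Brx68 replicate 3 and 0.274 or less in the others. Without these 3 libraries the median of the list was -0.31.

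Neural and pituitary genes followed a slightly different set of libraries. In the list of brain, peripheral glia and pituitary genes, 12 of 14 were fitted lower in Brx68 (median -1.59), 3 of them at an unadjusted p under 0.05 (2.69% of all genes tested). The median was -0.61 without Brx68 replicate 3, -0.71 without Brx50 replicate 3 and -0.42 without the 3 libraries with olfactory transcripts. The 3 were Tubb3 (-2.33 ± 0.80), Syt1 (-3.43 ± 1.32) and Pomc (-3.26 ± 1.23). Pomc, the precursor of pituitary corticotropin, stood at 1.23, 29.2, 36.3 and 23.8 CPM in Brx50, 10.1 in Brx68 replicate 3 and at most 1.41 in the other Brx68 libraries. Prl, pituitary prolactin, stood at 0, 54.6, 3.78 and 513 CPM in Brx50 and at 35.7 in Brx68 replicate 3, with at most 0.528 in the other Brx68 libraries. Gh, pituitary growth hormone, stood at 0, 80.6, 39.9 and 159 CPM in Brx50 and reached 31.6 in Brx68. Brx50 replicate 4 therefore carried pituitary transcripts without olfactory or rod transcripts at the level of replicates 2 and 3. The myelin gene Mbp, which peripheral nerve also expresses, had a fitted difference of -0.28 ± 0.45. The retina and the olfactory epithelium lie in the skull. In the Brx07 pair, Gnat1 stood at 33.2 CPM and Omp at 881 in the library titled skull, against 0.901 and 1.70 in the library titled leg. The part that the site of sampling has in these differences between Brx68 and Brx50 was not tested, since no label gives it.

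The other genes named for the smallest p among those lower in Brx68 included neuronal genes, and 3 of them did not overlap between the lines. Of all genes tested, 0.643% lay without overlap in this direction. Since these genes were picked by p in the same libraries, the lack of overlap is no separate support. Trim66, a chromatin-binding TRIM protein, stood at 4.38, 113, 171 and 13.6 CPM in Brx50 and from 0 to 8.69 in Brx68 (-4.87 ± 1.09). Celf3, a neuronal RNA-binding protein, stood at 4.38, 22.5, 41.1 and 18.7 CPM in Brx50 and from 1.58 to 5.24 in Brx68 (-2.67 ± 0.53). Both overlapped through Brx50 replicate 1. Apc2, a brain-enriched relative of the Wnt regulator APC (chr10:80295977-80318263), stood at 27.5, 23.5, 49.0 and 30.3 CPM in Brx50 and from 5.90 to 16.9 in Brx68 (-1.46 ± 0.30). Mast1, a microtubule-associated kinase (chr8:84911903-84937359), stood at 35.0, 10.6, 21.6 and 20.6 CPM in Brx50 and from 1.06 to 7.94 in Brx68 (-2.26 ± 0.50). Elmod3, an ELMO domain protein needed for hearing (chr6:72565922-72598413), stood at 31.7, 31.2, 39.9 and 21.7 CPM in Brx50 and from 5.21 to 16 in Brx68 (-1.61 ± 0.35). For these last 3, unlike the rod and olfactory genes, Brx50 replicates 1 and 4 stood near or above replicate 2. Sec14l5, a SEC14-like lipid-binding protein, stood at 4.10, 15.8, 20.9 and 12.5 CPM in Brx50 and from 0.968 to 5.22 in Brx68 (-2.23 ± 0.48). In controls Apc2 was at 15.4 ± 0.334 CPM, Mast1 at 3.15 ± 1.01 and Elmod3 at 11.9 ± 0.724 (SD, n = 3), each within the Brx68 range. In the Brx07 pair, Apc2 stood at 87.0 CPM and Elmod3 at 88.0 in the library titled skull, against 22.9 and 7.51 in the library titled leg. Mast1, Sec14l5, Celf3 and Trim66 were also higher in the skull library, as Gnat1 and Omp were. The part that the site of sampling has in these genes was not tested.

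**Figure D3:**
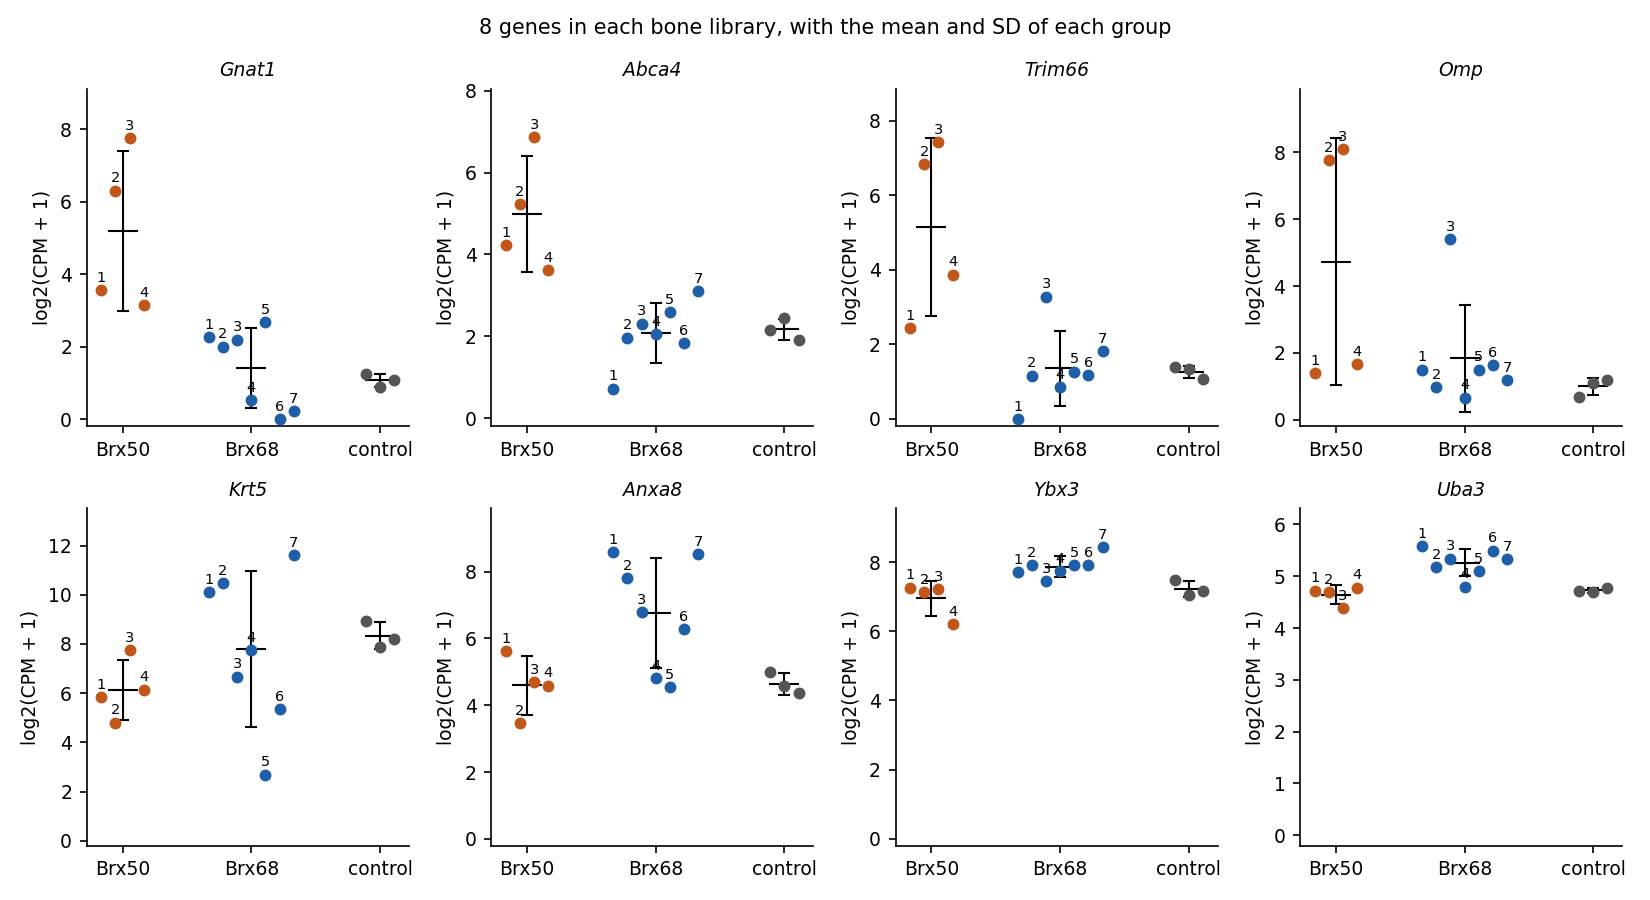
Levels of 8 genes as log2(CPM + 1) in each bone library of Brx50, Brx68 and control, with the group mean and SD. Points are numbered by replicate. Gnat1 and Abca4 separated the 2 lines with Brx50 above, Ybx3 and Uba3 with Brx68 above, and Trim66, Omp, Krt5 and Anxa8 overlapped.

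Squamous epithelium genes were the reverse case and were carried by Brx68 replicates 1, 2 and 7. Krt5, the basal layer keratin, stood at 56.6, 26.8, 213 and 69.7 CPM in Brx50. It stood at 1104, 1421 and 3147 CPM in Brx68 replicates 1, 2 and 7, but at 5.45 to 214 CPM in the other 4 Brx68 libraries and at 485, 233 and 296 in controls. The groups overlapped (3.30 ± 1.42). Krt1 and Krt10, the keratins of upper epidermis, were fitted at 5.81 ± 2.21 and 5.83 ± 2.18. Krt1 reached 1519, 2271 and 1539 CPM in those 3 libraries and at most 33.7 in the other 8. Krt13, the mucosal keratin whose promoter is printed above, stood at 1025, 1994 and 221 CPM in them, at most 121 in the other 8, and 178, 164 and 195 in controls (4.85 ± 1.95). Replicate 7 thus had more of the basal keratin Krt5 and less of the mucosal Krt13 and Krt4 than replicates 1 and 2. Lor, the cornified envelope protein loricrin, stood at 58.5, 32.1 and 10.4 CPM in the 3 libraries and at most 1.15 in the other 8 (5.45 ± 2.11).

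All 12 tested genes of the 13 in the squamous list were fitted higher in Brx68, 9 of them at an unadjusted p under 0.05 (1.26% of all genes tested), with a median of 3.81. Ivl, involucrin, was not tested. Lor passed the low count filter mainly through Brx68 replicates 1, 2 and 7. The count of 9 is therefore not independent of those levels. No member separated the lines. The list summed to 10556, 14008 and 13649 CPM in Brx68 replicates 1, 2 and 7, to 17.5 to 845 in the other Brx68 libraries, to 150 to 866 in Brx50 and to 1036 to 1856 in controls. Without those 3 libraries the median was -0.08. Glandular epithelium genes showed no such direction: 4 were fitted higher and 9 lower (median -0.44, and 0.02 without Brx50 replicate 4), with Bhlha15, a secretory cell factor, at -1.37 ± 0.50. Muc5b, a mucin of mucous glands, ran from 897 to 20506 CPM in Brx50 and from 115 to 11849 in Brx68.

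Of the 10 genes named for the smallest p among those higher in Brx68, 3 followed the squamous libraries. Mt4, the metallothionein of squamous epithelium, stood at 58.2, 123 and 36.7 CPM in Brx68 replicates 1, 2 and 7, at most 2.48 in the other 4 and at most 0.410 in Brx50 (7.54 ± 2.31). Its Brx50 level rests on 6 counts in all, so Mt4 passed the filter through Brx68 alone, where it was high. Krt24, a keratin, stood at 27.6, 49.4 and 22.9 CPM in the same 3 libraries and at most 4.45 in the other Brx68 libraries (4.75 ± 1.46). Anxa8, an annexin, stood at 381, 223 and 368 CPM in them, 22.2 to 109 in the other 4 and 48.4, 10.1, 24.8 and 23 in Brx50 (2.69 ± 0.83).

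In the other 7, squamous replicates 1, 2 and 7 did not all stand above the rest of Brx68. Ybx3, an RNA-binding cold shock protein (chr6:131364855-131388476), stood at 152, 139, 148 and 72.9 CPM in Brx50 and from 173 to 342 in Brx68 (median 239). Its groups did not overlap (0.94 ± 0.29), and controls stood at 179, 132 and 141. Uba3, the catalytic subunit of the enzyme that activates NEDD8 (chr6:97183670-97205647), stood at 25.4, 24.8, 19.8 and 26.5 CPM in Brx50 and from 26.8 to 46.7 in Brx68. All 7 lay above Brx50 (0.71 ± 0.22), and controls stood at 25.3, 24.8 and 26.5. Without overlap in this direction lay 0.0481% of all genes tested. Ybx3 and Uba3 were picked by p in the same libraries, so their lack of overlap is no separate support. Gja5, the connexin of arterial endothelium, stood at 14.1, 4.73, 7.66 and 9.25 CPM in Brx50 and from 12.1 to 45.5 in Brx68 (1.70 ± 0.50). Map3k20, a stress-activated kinase, stood at 133, 93.5, 77.3 and 96.7 CPM in Brx50 and from 120 to 365 in Brx68, highest in replicates 1 and 7 (1.13 ± 0.34). Both overlapped only through Brx50 replicate 1. Cxcl14, a chemokine of fibroblasts and epithelium, stood at 90.2, 23.2, 56.0 and 35.3 CPM in Brx50 and from 42.3 to 1112 in Brx68, highest in replicate 6 (2.90 ± 0.92). Chl1, an L1 family adhesion protein, stood at 29.8, 10.7, 14 and 20.0 CPM in Brx50 and from 7.67 to 207 in Brx68 (2.56 ± 0.80). Npy1r, the neuropeptide Y receptor Y1, was highest in Brx68 replicates 1 and 7 at 23.4 and 16.5 CPM and stood at 2.55 in replicate 2, within the Brx50 range of 2.25 to 4.57 (1.60 ± 0.51).

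Neutrophil transcripts split the libraries within each line. Ltf, the secondary granule protein lactoferrin, stood at 13.4, 6504, 5723 and 243 CPM in Brx50. It stood at 6778 and 3468 CPM in Brx68 replicates 4 and 5, at most 720 in the other 5, and 5536, 7889 and 6821 in controls (-0.87 ± 1.77). S100a9, a calprotectin subunit, stood at 17890 and 6728 CPM in Brx50 replicates 2 and 3, 10426 and 6180 in Brx68 replicates 4 and 5, and 2.69 to 213 in the other 7. Mpo, the primary granule enzyme of neutrophil precursors, stood at 599, 470, 1051 and 137 CPM in the same 4 libraries, at most 17.7 in the other 7 and 745, 545 and 679 in controls. All 15 tested secondary and tertiary granule genes were fitted lower in Brx68 (median -0.95), as were all 9 tested primary granule genes (median -0.44), with 0 of them at an unadjusted p under 0.05. Without the 4 neutrophil-rich libraries the medians were 1.30 and 0.86. Without Brx50 replicate 2 alone they were 0.05 and 0.47, and without Brx50 replicate 3 alone -0.70 and -0.19. Cell cycle genes were high in the same 4 libraries: Mki67, a marker of dividing cells, stood at 1872 and 675 CPM in Brx50 replicates 2 and 3 and at 1589 and 3738 in Brx68 replicates 4 and 5, against 54.9 to 321 in the other 7. Of 17 cell cycle genes, 15 were fitted higher in Brx68 (median 0.33). The median was -0.24 without Brx68 replicate 5, 1.13 without Brx50 replicate 2, and -0.15 in the libraries whose code ends in 2.

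Red cell genes were highest in Brx68 replicate 5, where the erythroid list summed to 15823 CPM. Its sum was 739 CPM in Brx68 replicate 4, within the control range of 718 to 1592. In the remaining Brx68 libraries it was 86.0 to 133 CPM, and in Brx50 144 to 380. Hbb-bs, adult beta globin, stood at 37.3, 47.8, 11.8 and 23.8 CPM in Brx50, 3927 in Brx68 replicate 5 and 0 to 45.3 in the other 6, against 317, 121 and 138 in controls. Slc4a1, the red cell anion exchanger, stood at 4277 CPM in Brx68 replicate 5, 63.3 in replicate 4, at most 1.34 in the other 5 and at most 29.9 in Brx50. Near-identical globin copies share reads, so single globin values are uncertain. All 12 tested genes of the 14 in the erythroid list were fitted higher in Brx68 (median 3.23), none at an unadjusted p under 0.05, and without replicate 5 the median was -0.26. Reads from the other blood lists gave no common direction. Of 8 tested megakaryocyte genes 6 were fitted lower (median -0.50), with Itga2b, the platelet integrin, at 20.2, 19.5, 35.0 and 94.9 CPM in Brx50 and 8.62 to 26.8 in Brx68 (-1.30 ± 0.43). Medians were 0.16 for monocytes and macrophages (10 of 16 higher), -0.61 for dendritic cells (2 of 11 higher) and -0.10 for haematopoietic progenitors (6 of 13 higher). The median was -0.11 for mast cells and basophils (5 of 10 higher). Only 5 of 14 lymphocyte genes passed the filter, all fitted lower (median -0.96), and Ms4a1 and Ncr1, markers of B and natural killer cells, had 0 counts in all 11 libraries.

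**Figure D4:**
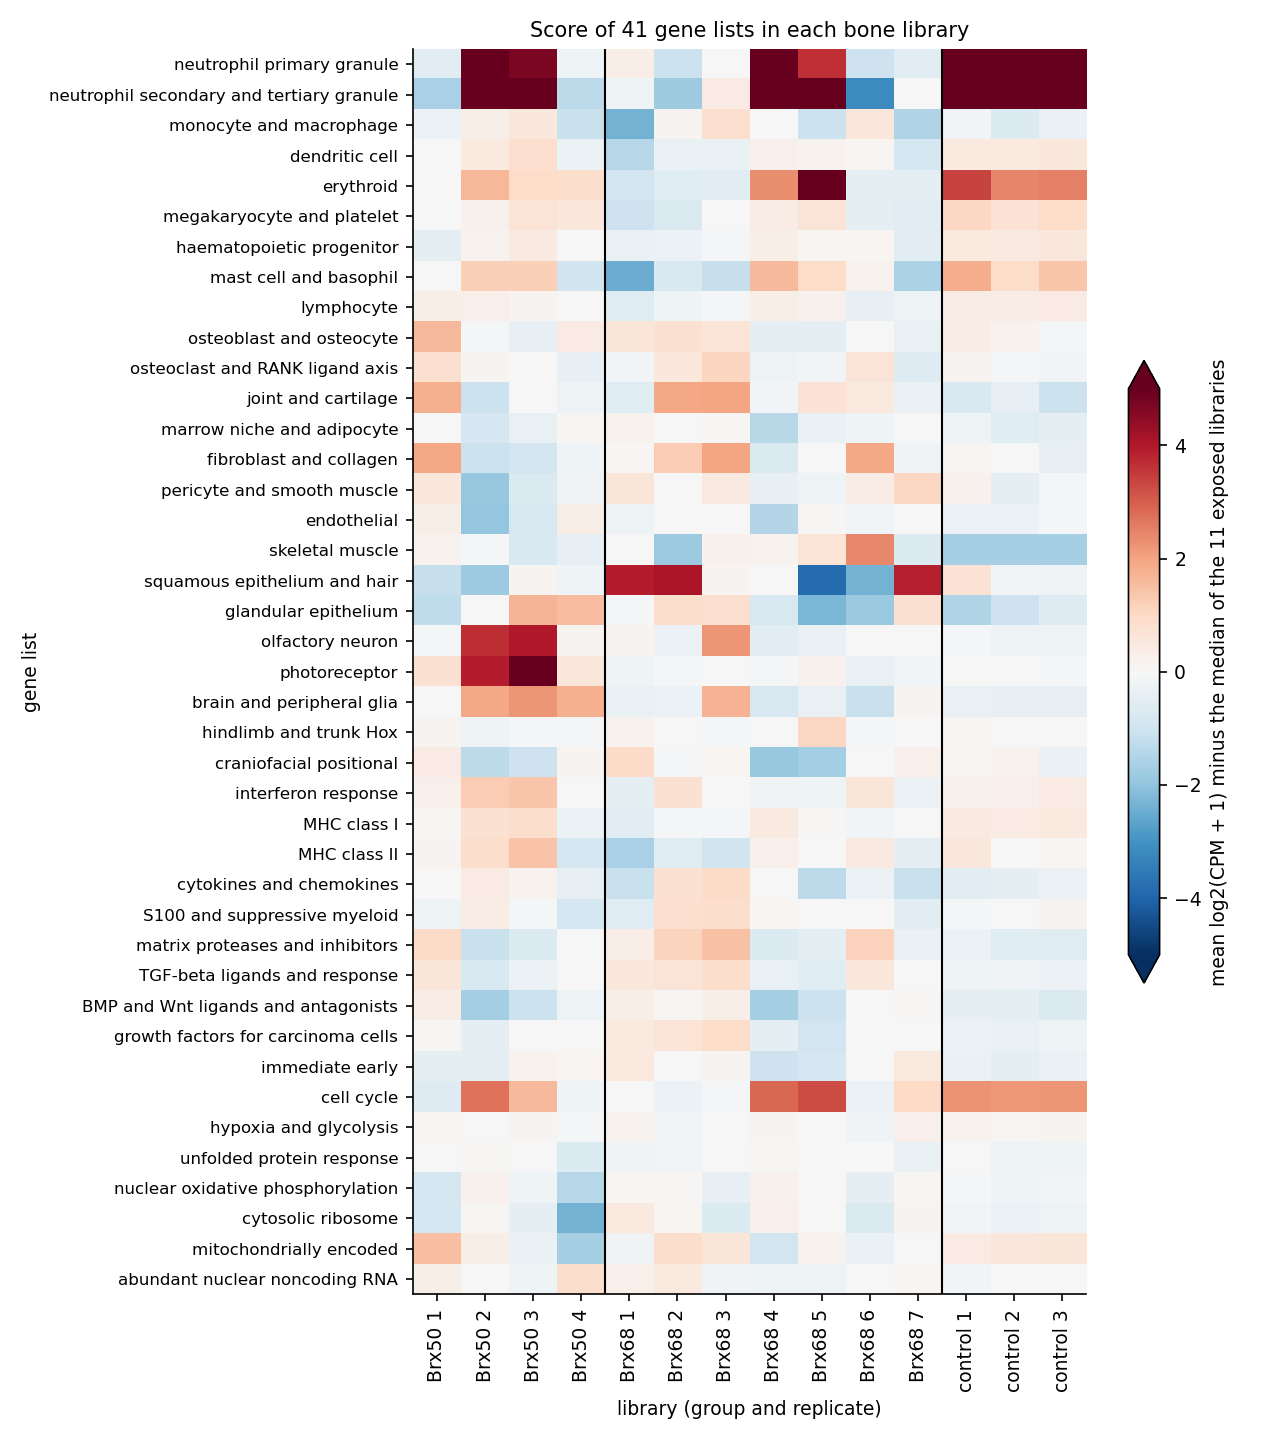
Score of each of the 41 gene lists (the mean log2(CPM + 1) of its members) in each library, less the median of the 11 exposed libraries; red is above and blue below, and colours are capped at 5. Brx50 2 and 3 and Brx68 4 and 5 resembled controls in neutrophil and cell cycle lists, while squamous, olfactory and photoreceptor lists stood out in other libraries of each line.

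Levels of bone and joint genes overlapped between the lines for the genes named here. Ibsp, the bone sialoprotein of osteoblasts, stood at 249, 37.1, 16.7 and 23.1 CPM in Brx50 and from 15.2 to 537 in Brx68. Bglap, osteocalcin, stood at 23.1, 6.64, 3.59 and 4.00 CPM in Brx50 and from 0.283 to 12.1 in Brx68. Brx68 replicate 6 had the lowest Bglap, which is below the limit that a count of 0 allows there, while its Ibsp stood at 94.2 CPM. Of 12 tested osteoblast and osteocyte genes 9 were fitted lower (median -0.27, and 0.62 without Brx50 replicate 1), with Ifitm5, a mineralisation protein of osteoblasts, at -1.01 ± 0.42. Osteoclast and RANK ligand genes had a median of 0.13 (7 of 11 higher), and genes of the marrow niche and adipocytes 0.36 (8 of 12). Joint and cartilage genes were fitted higher for 11 of 12 (median 0.46, and 1.76 without Brx50 replicate 1). Prg4, the joint lubricant lubricin, stood at 365, 78.8, 53.6 and 371 CPM in Brx50 and from 44.0 to 1164 in Brx68, with 943, 1072 and 1164 CPM in replicates 2, 3 and 6 (1.42 ± 1.06). Controls stood at 27.7, 36 and 29.3 CPM, below all 11 exposed libraries.

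Fibroblast and vascular lists were fitted higher in Brx68 within overlapping groups. Without the 3 libraries with olfactory transcripts, their medians were -0.47 for fibroblasts, 0.08 for pericytes and -0.40 for endothelium. In the libraries whose code ends in 2 they were 2.05, 2.12 and 1.66, and without Brx50 replicate 1 they were 1.70, 1.38 and 0.52. Of 16 fibroblast and collagen genes 14 were fitted higher (median 0.56), while the type I collagen gene Col1a1 was at -0.18 ± 0.81. Its highest levels were 29805 CPM in Brx50 replicate 1 and 18831 in Brx68 replicate 3. All 11 pericyte and smooth muscle genes were fitted higher (median 0.66), 3 of them at an unadjusted p under 0.05 (1.26% of all genes tested). Acta2, smooth muscle actin, stood at 186, 28.4, 106 and 84.8 CPM in Brx50 and from 80.5 to 643 in Brx68 (1.42 ± 0.59). Myh11, smooth muscle myosin, stood at 274, 38.9, 213 and 313 CPM in Brx50, and was highest in Brx68 replicates 1 and 7 at 1670 and 1470 (1.64 ± 0.74). Tagln, an actin-binding protein of the same cells, was at 1.47 ± 0.56. Replicates 1 and 7 are 2 of the 3 libraries with squamous transcripts, and without all 3 the median of the list was 0.43. Endothelial genes had a median of 0.25 (10 of 12 higher). Skeletal muscle genes were fitted higher for all 11 tested (median 1.05, and 0.31 without Brx68 replicate 6), with the largest sum, 5418 CPM, in Brx68 replicate 6 against 165 to 1079 in the other 10. Myh1, a fast muscle myosin, stood at 2537 CPM there and at most 204 elsewhere.

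Position genes, whose expression differs along the body axis, were read as levels. Hoxa10, a gene of the lower trunk and hindlimb, had 0 counts in all 4 Brx50 libraries. In Brx68 it stood at 10.1 CPM in replicate 5, 1.17 in replicate 4 and at most 0.0842 in the other 5. Controls stood at 0.154, 0.282 and 0.0926, and the Brx07 libraries at 3.70 (leg) and 0 (skull). Hoxd10 stood at 9.11 CPM in Brx68 replicate 1 and at most 0.684 in the other 10. Of the 14 listed genes, 8 had 0 counts in all of Brx50, 7 in all controls and 1 in all of Brx68, the group with the most libraries. Only Hoxa9, Hoxd9 and Pitx1 were tested (median 0.92). The craniofacial genes had a median of 0.40 (11 of 13 higher), which was -0.35 without the 3 libraries with olfactory transcripts and -0.38 without the 3 with squamous transcripts. Their summed level was lowest, at 37.7 to 102 CPM, in Brx50 replicates 2 and 3 and Brx68 replicates 4 and 5, the neutrophil-rich libraries, and 175 to 492 in the other 7.

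Interferon and antigen presentation genes were mostly fitted lower in Brx68 with all 11 libraries. Of 18 interferon response genes 14 were fitted lower (median -0.68), and Ifit3, Stat2 and Mx1 were among those with an unadjusted p under 0.05 (4 of 18, against 2.69% of all genes). Ifit3, an antiviral effector, stood at 19.0, 177, 125 and 9.14 CPM in Brx50 and from 9.18 to 37.7 in Brx68 (-1.97 ± 0.70). Its high levels were in Brx50 replicates 2 and 3, and without those and Brx68 replicate 3 the median of the list was 0.30. In the libraries whose code ends in 2 it was -1.20. Stat2, a signal transducer of type I interferon, stood at 145, 111, 143 and 222 CPM in Brx50 and from 54.1 to 138 in Brx68 (-0.67 ± 0.29). Nlrc5, the transactivator of MHC class I genes, stood at 58.7, 60.7, 74.5 and 72.1 CPM in Brx50 and from 17.6 to 47.1 in Brx68. It did not overlap (-0.91 ± 0.27), and controls stood at 42.6, 37.5 and 45.3. H2-D1 (-0.17 ± 0.41) and B2m (0.16 ± 0.46), class I genes it acts on, did not separate the lines. In the class I list 10 of 11 tested genes were fitted lower (median -0.44). Of its members, 1 was lower in all Brx68 libraries, against 0.643% of all genes tested. All 6 tested class II genes were fitted lower (median -1.12). Without the 3 libraries with olfactory transcripts these medians were 0.54 and 0.32, and in the libraries whose code ends in 2 they were -0.84 and -1.41. Cd74, the invariant chain, stood at 174, 335, 689 and 70.7 CPM in Brx50 and from 14.2 to 249 in Brx68 (-1.19 ± 0.69).

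Secreted and immunomodulatory genes were split in direction. Cytokines and chemokines had a median of -0.65 (7 of 15 higher). Il1b, interleukin 1 beta, stood at 10.5, 1814, 1468 and 54.5 CPM in Brx50, 826 in Brx68 replicate 4 and 30.2 to 135 in the other Brx68 libraries, thus high in 3 of the 4 neutrophil-rich libraries. Cxcl1, a neutrophil attractant, stood at 473, 69.5, 67.0 and 221 CPM in Brx50 and from 94.4 to 992 in Brx68. In the list of S100 and suppressive myeloid genes (7 of 11 higher, median 0.45, and -0.09 without Brx68 replicate 2), Saa3, an acute phase serum amyloid, was at 5.22 ± 1.86. It stood at 0.684, 5.97, 0.970 and 0.457 CPM in Brx50, 398 in Brx68 replicate 3, 36.8 in replicate 2 and at most 23.1 in the others. Cd274, the checkpoint ligand PD-L1, stood at 32.8, 70.2, 51.5 and 25.4 CPM in Brx50 and from 16 to 28.1 in Brx68 (-0.88 ± 0.32).

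Matrix proteases and their inhibitors were fitted higher for 15 of 16 (median 0.66), TGF-beta ligands and response genes for 9 of 14 (median 0.43), and BMP and Wnt ligands and antagonists for 9 of 12 (median 0.67). Without the 3 libraries with olfactory transcripts these medians were -0.15, -0.02 and -0.19, and in the libraries whose code ends in 2 they were 1.67, 0.93 and 1.88. Of 13 tested growth factors for carcinoma cells 10 were fitted higher (median 0.65). Igf1, insulin-like growth factor 1, stood at 152, 51.4, 30.4 and 94.1 CPM in Brx50 and from 27.7 to 405 in Brx68 (1.32 ± 0.75). Egf, epidermal growth factor, was lower at -1.84 ± 0.73, with 29.9 CPM in Brx50 replicate 3 and at most 6.39 elsewhere.

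**Figure D5:**
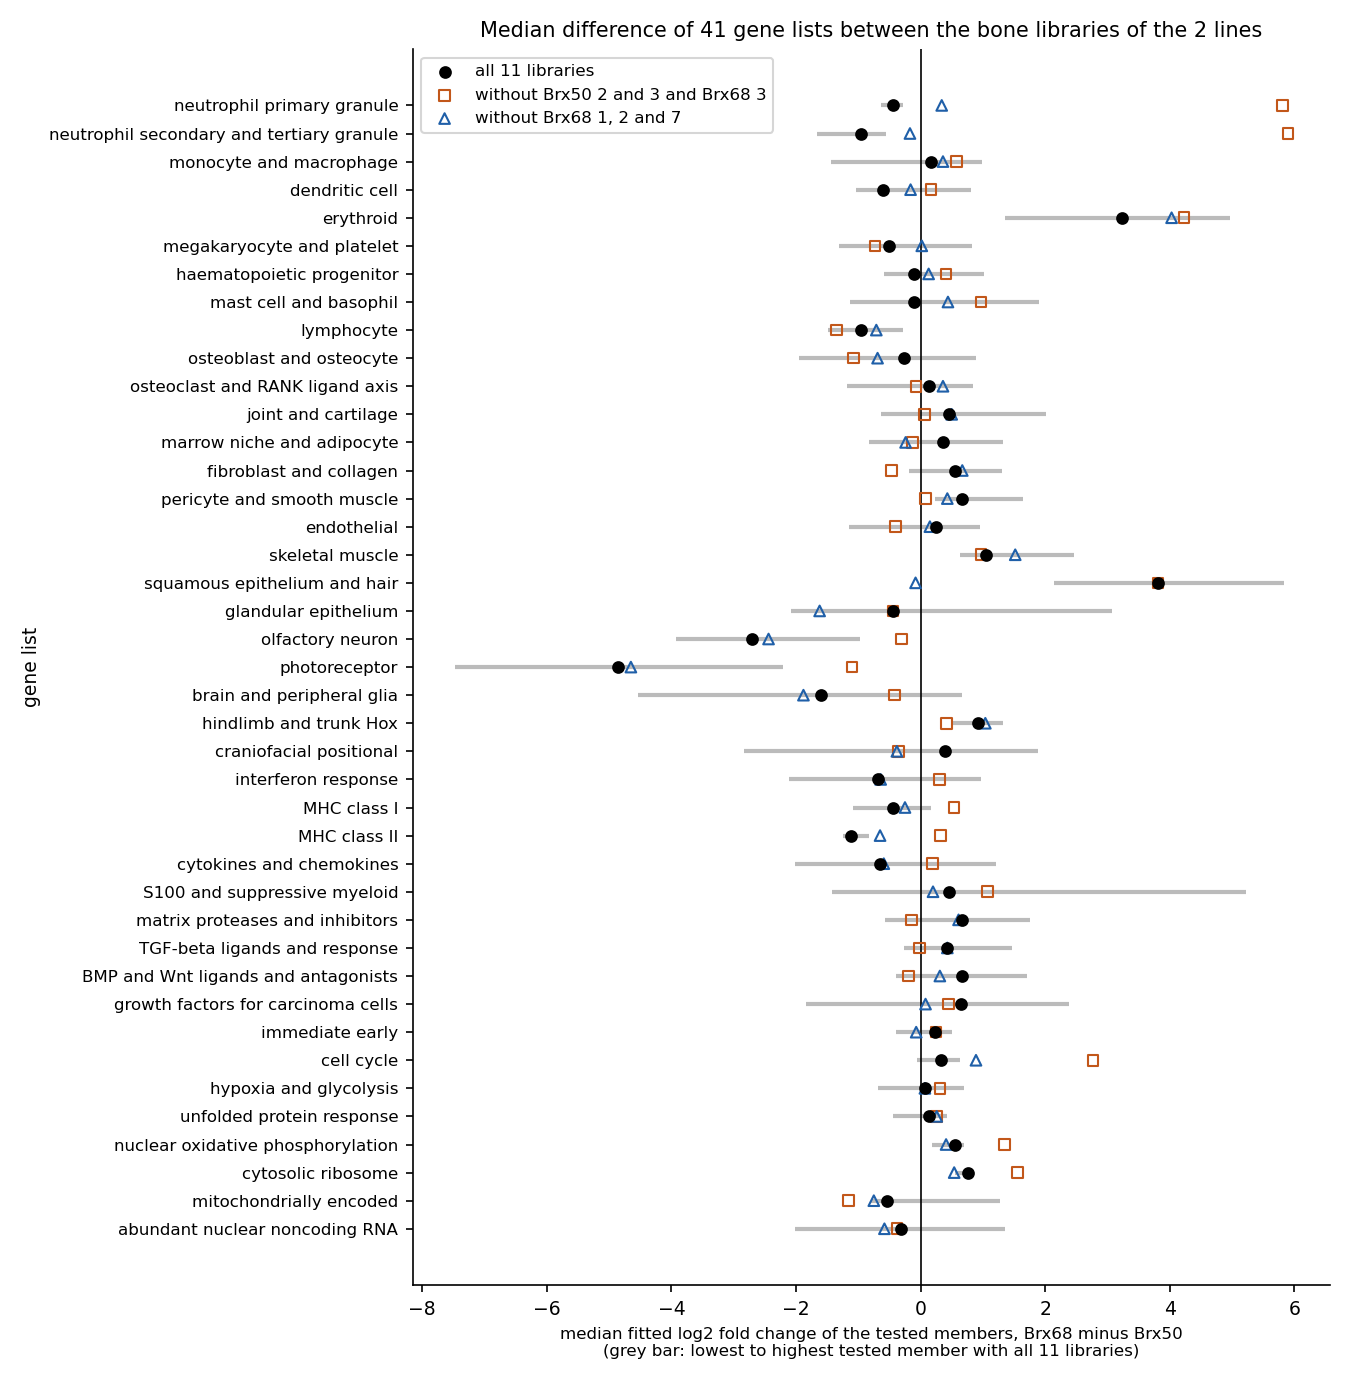
Median fitted log2 difference (Brx68 minus Brx50) of the tested members of each list with all 11 libraries (black), without the 3 libraries with olfactory transcripts (orange squares) and without the 3 with squamous transcripts (blue triangles); grey bars run from the lowest to the highest member. The photoreceptor median went from -4.85 to -1.10 without the former and the squamous median from 3.81 to -0.08 without the latter.

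All 15 cytosolic ribosome genes (median 0.76) and all 15 nuclear genes of oxidative phosphorylation (median 0.56) were fitted higher in Brx68 with all 11 libraries. The medians were 0.44 and 0.32 without Brx50 replicate 4, and 0.09 and -0.11 in the libraries whose code ends in 2. Among them 1 gene had an unadjusted p under 0.05, against 1.26% of all genes tested that were higher at that limit. Rpl4, a large subunit protein, stood at 472, 863, 581 and 189 CPM in Brx50 and from 485 to 1270 in Brx68, lowest in Brx50 replicate 4. That library also held the highest Neat1, a nuclear noncoding RNA, at 30750 CPM against 1048 to 4970 in the other 10 (-2.01 ± 0.82), and the lowest share of mitochondrial counts at 0.155%. The abundant nuclear noncoding RNAs had a median of -0.32 (3 of 8 higher) and mitochondrially encoded genes -0.54 (2 of 9 higher). The latter was 0.81 without Brx50 replicate 1 and 0.25 in the libraries whose code ends in 2. Brx50 replicate 1 had the highest share of mitochondrial counts, 3.88%. Medians were 0.24 for immediate early genes (11 of 15 higher), 0.14 for the unfolded protein response (10 of 12) and 0.07 for hypoxia and glycolysis (10 of 16), the list median that crossed 0 with another scaling (-0.00 with the upper quartile). The part that these library features have in the differences between the lines was not tested.

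Titles of the libraries end in a numeric code of 2 parts, whose meaning is not given. Brx50 replicate 3 and Brx68 replicate 6 bear the same code. Codes ending in 2 were borne by Brx50 replicates 2 and 3 and Brx68 replicates 5, 6 and 7, those ending in 3 by Brx50 alone and those ending in 1 by Brx68 alone. Among the 5 libraries with codes ending in 2, edgeR called 6 of 16950 genes, all lower in Brx68 (0.0354%): Omp (-7.04), Stoml3 (-9.82), Trim66 (-6.26), Elavl3 (-6.26), Scn9a (-10.66) and Gfy (-10.21), with adjusted p from 0.0303 to 0.0335. Elavl3 is a neuronal RNA-binding protein, Scn9a a sodium channel of sensory neurons and Gfy a Golgi protein of olfactory neurons. Scn9a, Gfy and Stoml3 passed the filter here only through Brx50 replicates 2 and 3, where they were high. They were not tested with all 11 libraries, and their calls are not independent of those levels. This subset leaves out Brx68 replicate 3, the Brx68 library with olfactory transcripts, and Brx50 replicates 1 and 4, which had few. In it the photoreceptor median was -6.83, the olfactory median -5.79 and the squamous median 3.16.

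Lung libraries of the same lines give the levels outside bone. Gnat1 stood at 8.80, 3.40 and 0.494 CPM in the 3 Brx50 lung libraries and at 8.37 in the Brx68 lung library. Krt5 stood at 0.168, 4.27 and 0.212 CPM in Brx50 lung and 1.60 in Brx68 lung, Ybx3 at 94.5, 87.7 and 48.9 against 105, and Uba3 at 27.4, 22.7 and 23.6 against 24.7. With 1 Brx68 lung library there is no replicate check, and no direction is read from these levels.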

How the data were processed

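RNA-seq of sorted GFP- mouse cells was deposited as 1 table of raw counts per gene for all 30 libraries. The submitters' processing notes name HTSeq, STAR 2.5.2b and, with no role for each, 4 builds: mm10, GRCm38.p5, GRCh37 and hg19. The strand setting, the annotation and the handling of human reads are not stated there. For that reason, overlapping and antisense genes are uncertain. Of 43346 gene IDs, 42462 had a symbol in GENCODE M21 and 884, holding 0.132% of counts, did not. Gene positions are on GRCm38.

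From the deposited counts, edgeR 4.0.16 (R 4.3.3; TMM scaling, filterByExpr, robust quasi-likelihood F-test, Benjamini-Hochberg adjustment over all genes tested) compared Brx68 with Brx50 over 11 libraries without covariates. CPM is the count over the library total, unscaled by TMM. A list score is the mean log2(CPM + 1) of its members. Replicates are numbered in accession order. Tested on simulated counts with 200 changed genes, the fit made 2 false calls. Alternatives used DESeq2 1.42.0, limma 3.58.1 (voom), other scalings, no filter, all 16 bone libraries, subsets and leaving out each library.

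Named genes were up to 10 per direction past the threshold with at least 10 CPM in a group, filled by the smallest unadjusted p, plus list members; genes without a symbol, predicted genes and pseudogenes were left out. A few genes that met this rule are not reported here. Members of 41 gene lists and other genes singled out were chosen with earlier results of these data known, or after their values were seen. Figures and tables used Python 3.11.15, pandas 2.3.3, numpy 2.4.6 and matplotlib 3.10.9.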

Additional observations from a re-analysis of the deposited data

Results flagged for a closer look

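Within a line, 8 of 126 groups of values had a library whose gap to the nearest other exceeded Dixon's 95% critical value, and chance gives about 1 in 20. All values are on the log2(CPM + 1) scale. In Brx68 replicate 4, the marrow niche and adipocyte score was 4.08 against 5.13 to 5.66 in the other Brx68 libraries, and the endothelial score was 5.80 against 7.03 to 7.34. The olfactory score was 4.31 in Brx68 replicate 3 against 1.55 to 2.24. The hindlimb and trunk Hox score was 1.56 in Brx68 replicate 5 against 0.45 to 0.70. In Brx50, growth factors for carcinoma cells scored 3.81 in replicate 2 against 4.28 to 4.34. The unfolded protein response scored 6.21 in replicate 4 against 6.89 to 6.93. Ybx3 was at 6.21 in Brx50 replicate 4 against 7.13 to 7.26. Mt4 was at 0.50 in Brx50 replicate 1 against 0.13 to 0.16, a difference of few counts.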

How the results depend on the processing

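Of 22 alternatives, 20 gave 0 genes past the threshold, as did the edgeR test of all 11 libraries. DESeq2 gave 31, and the libraries whose code ends in 2 gave 6 with edgeR. The cause of neither was tested. At an unadjusted p under 0.05 the alternatives gave 364 to 2717 genes, and leaving out 1 library gave 364 (without Brx50 replicate 3) to 1032 (without Brx50 replicate 1). With upper quartile scaling 148 of these were higher and 601 lower, and with RLE scaling 179 of 705 were higher. The median of all genes was -0.08 and -0.04 under them. List medians kept one sign in every setting for 10 of 41 lists, and 31 changed sign in 1 or more. Leaving out libraries with olfactory, squamous or neutrophil transcripts, or with the fewest genes, was chosen after seeing the data. Of the 20 genes named for the smallest p at 10 CPM or more in a group (10 per direction), 12 passed the threshold with DESeq2. None reversed in an alternative that tested it. These genes were picked by p in the same libraries, so neither count is separate support. No paired analysis was possible because replicate numbers follow accession order and only 1 title code is shared between the lines, by Brx50 replicate 3 and Brx68 replicate 6. In simulated counts drawn for each gene independently, the test recovered 0% of genes changed 2-fold.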
